A study of Mus musculus with 4 samples.

Results

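The AP-1 genes and their companions of the early growth response (EGR) family were read in aorta RNA of mice lacking geranylgeranyl diphosphate synthase (GGPPS, gene symbol Ggps1) and of wild-type mice. The set was given by gene symbol: Fos, Fosb, Fosl1 and Fosl2, then Jun, Junb and Jund, then Egr1 and Egr2. These 9 symbols were each found on 1 row of the files, out of 24346 rows, and each passed the filter that left 12314 genes for testing. There were 2 libraries of GGPPS knockout aorta and 2 of wild-type aorta. Both genotypes are labelled C57BL/6 and 3 weeks old, and every title names male and female mice. GGPPS makes geranylgeranyl diphosphate, a lipid that is attached to proteins and in the cell leads them to membranes. The labels name no Cre line, promoter or cell type for the knockout, and do not say how many animals went into a library.

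AP-1 is a dimer of leucine zipper proteins in which a JUN protein pairs with a FOS protein or with another JUN protein. FOS proteins do not pair with each other. Fos, Fosb, Jun, Junb, Egr1 and Egr2 are known as immediate early genes, switched on within minutes by growth factors, stretch and cell handling through MAP kinases and the serum response factor SRF. Fosl1, which encodes Fra-1, is known to respond later and to depend on sustained ERK signalling and on AP-1 itself. EGR proteins are zinc finger factors that bind GC-rich sites and are held in check by the NAB corepressors. In vessel wall, Egr1 is best known for its response to injury and shear.

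Levels are given as FPKM, the fragments of a gene scaled for its length and for the size of the library, so that levels of different genes can be compared. FPKM summed to 611767 and 632918 in the knockout libraries, against 515927 and 520478 in the wild-type libraries. Ggps1 itself stood at 1.18 and 1.07 FPKM in knockout and at 8.96 and 10.6 FPKM in wild type, in the direction of the labels. Contractile smooth muscle markers such as Acta2 and Myh11 were present in each library, though lower in knockout. Acta2 averaged 1420 FPKM in knockout and 6857 FPKM in wild type. These markers show smooth muscle content and do not by themselves identify aorta. Changes are log2 differences of FPKM + 1, knockout minus wild type, tested with limma on all tested genes and adjusted by Benjamini-Hochberg over them, with a threshold of 0.05. Across the tested genes, 35.2% were called higher in knockout and 30.6% lower, and in 83.1% both libraries of one genotype lay above both of the other. The median change of tested genes was 0.03, and -0.20 when the columns were scaled to equal totals. That scaling changed the calls from 4332 higher and 3764 lower to 3095 higher and 5620 lower.

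Of the 9 genes, 4 were called higher in knockout (Fosl1, Junb, Egr1 and Egr2), 4 lower (Fos, Fosb, Jun and Jund) and Fosl2 was not called. With 35.2% of tested genes called higher and 30.6% lower, the division by itself is no result about these genes. In 8 of the 9 genes the libraries of the genotypes did not overlap, beside 83.1% of all tested genes. Fosl1 and Egr2 were under 1 FPKM in both wild-type libraries and reached the test through the knockout libraries alone, so they could be called in 1 direction at most.

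**Figure D1:**
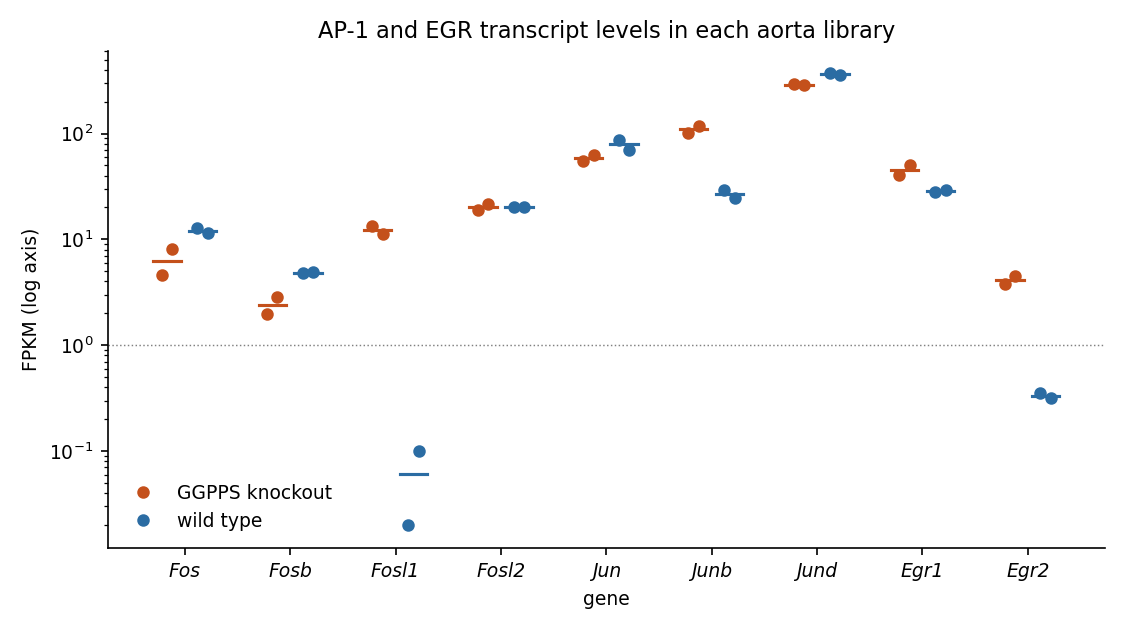
FPKM (log axis) of the 9 AP-1 and EGR genes in the 2 knockout and 2 wild-type libraries; each point is a library, each bar the mean of 2, and the dotted line marks 1 FPKM. Fosl1 and Egr2 lie above the line in knockout and under it in wild type, Junb is separated by more than the spread within a genotype, and Fosl2 overlaps.

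Fosl1, the gene of Fra-1, showed the largest change of the 9. It was at 13.3 and 11.3 FPKM in the knockout libraries, against 0.0199 and 0.101 FPKM in the wild-type libraries. Fosl1 was thus barely listed in wild type and at the level of a moderately expressed transcription factor in both knockout libraries. It was tested through the knockout libraries alone, so it could only be called higher. Its log2 change was 3.65 (SE 0.13, 95% confidence interval 3.37 to 3.93, limma adjusted p = 5.8e-11), which ranked 57 of the 12314 tested genes from the top. Without the pseudocount the ratio of the means was 204-fold, but the wild-type level that divides it is poorly fixed. Set against wild-type library 1 alone the knockout mean was 619-fold higher, and against library 2 alone 122-fold higher. The log2 change was 6.32 with a pseudocount of 0.1 and 1.77 with a pseudocount of 5. Fosl1 lies on mm10 chromosome 19, 5447547 to 5455946, plus strand, with 4 exons in its longest transcript. Exons of Ccdc85b overlap it on the opposite strand, and the labels do not say if reads were assigned by strand. Ccdc85b was at 20.8 and 17.7 FPKM in knockout and at 25.5 and 24.6 FPKM in wild type, the opposite order to Fosl1.

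Fos, the founding member of the family and a standard mark of recent stimulation, was lower in knockout. It was at 4.55 and 8.05 FPKM in knockout and at 12.8 and 11.5 FPKM in wild type. Both knockout libraries lay below both wild-type libraries, but they stood well apart from each other. Among tested genes, 0.577% differed more between the 2 knockout libraries than Fos did. The log2 change was -0.88 (SE 0.18, 95% confidence interval -1.28 to -0.49, limma adjusted p = 0.000715). Without knockout library 1, the lower one, it was -0.53 (limma adjusted p = 0.00975), and the single knockout library left was then assumed to vary like wild type. Fos lies on chromosome 12, 85473890 to 85477273, plus strand.

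Fosb, whose product is the FOS protein best known from long-lasting neuronal stimulation, followed the same direction at a lower level. Its values were 1.98 and 2.84 FPKM in knockout and 4.81 and 4.89 FPKM in wild type, with no overlap. The log2 change was -0.79 (SE 0.14, limma adjusted p = 0.00022), and the wild-type mean was 2.01-fold the knockout mean. With a pseudocount of 5 the change was -0.41.

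Fosl2, which encodes Fra-2, was the FOS family gene with the highest level in each library. It stood at 18.8 and 21.8 FPKM in knockout and at 20.4 and 20.3 FPKM in wild type, and the genotypes overlapped. Its log2 difference was -0.01 (95% confidence interval -0.26 to 0.24, limma adjusted p = 0.958). The sign and the call depended on the scaling. Scaling the columns to equal totals gave -0.26, called lower (adjusted p = 0.0398 by limma). Removing trends over gene length and GC content gave 0.30, called higher (adjusted p = 0.00895 by limma). Without knockout library 1 the difference was 0.09, not called.

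Among the JUN genes, Junb was higher and the 2 others slightly lower in knockout. Junb, a JUN protein known to act as a weaker activator than Jun, was at 102 and 118 FPKM in knockout and at 29.3 and 24.5 FPKM in wild type. Knockout libraries were far above wild type, with a 4.08-fold ratio of the means and a log2 change of 1.99 (SE 0.12, limma adjusted p = 7.21e-09). Junb is a single-exon gene on chromosome 8, 84974484 to 84978718, minus strand, and Prdx2 lies across it on the opposite strand without sharing exons.

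Jun, the main partner of Fos, was at 55.1 and 63.1 FPKM in knockout and at 87.6 and 70.4 FPKM in wild type. The libraries did not overlap, and the gap between the nearest of them was smaller than the gap between the 2 wild-type libraries. The log2 change was -0.41 (SE 0.12, limma adjusted p = 0.00871). The call ended when wild-type library 1 was left out, at -0.25 (adjusted p = 0.214 by limma). It also ended when knockout library 1 was left out, at -0.31 (adjusted p = 0.103 by limma), and when low genes were kept in the test (adjusted p = 0.0507 by limma). With equal column totals the change was -0.67.

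Jund, known as the JUN gene with steady expression in resting cells, was the most abundant of the 9 genes in each library. It was at 292 and 288 FPKM in knockout and at 370.2 and 354 FPKM in wild type. The genotypes were separated by more than the small spread within each, with a log2 change of -0.32 (SE 0.09, limma adjusted p = 0.00703). The call ended when wild-type library 1 was left out, at -0.29 (adjusted p = 0.0951 by limma), and with equal column totals the change was -0.58, with quantile normalization -0.63. Antisense genes share exon sequence with Jun (Junos) and with Jund (Gm11175), and neither has a row in the files.

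**Figure D2:**
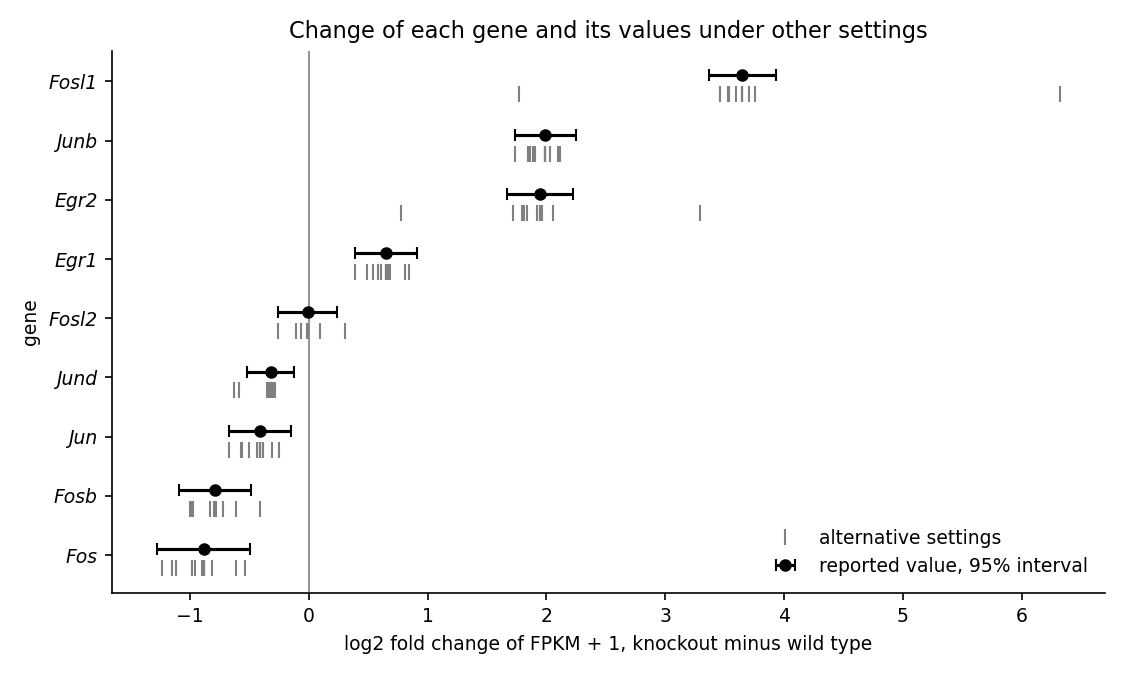
Log2 fold change of FPKM + 1, knockout minus wild type, of the 9 genes, with the reported value and its 95% confidence interval from limma (black) and the value under each alternative setting (grey ticks). Fosl1, Junb, Egr2 and Egr1 lie right of 0 and Fos, Fosb, Jun and Jund left of 0 in each setting, while Fosl2 falls on both sides.

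Egr1 was higher in knockout, opposite to Fos. It was at 40.5 and 50.9 FPKM in knockout and at 27.8 and 29.4 FPKM in wild type, with both knockout libraries above both wild-type libraries. The mean was 1.60-fold that of wild type and the log2 change 0.65 (SE 0.12, 95% confidence interval 0.39 to 0.91, limma adjusted p = 0.000325). With equal column totals it was 0.39 (limma adjusted p = 0.00718). Egr1 lies on chromosome 18, 34859823 to 34864984, plus strand.

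Egr2, also called Krox20, was at 3.75 and 4.54 FPKM in knockout. In wild type it was at 0.351 and 0.314 FPKM. All values were low, and the genotypes were far apart relative to the spread within each. Egr2 was tested through the knockout libraries alone, so it could only be called higher. The ratio of the means was 12.5-fold and the log2 change 1.95 (SE 0.13, limma adjusted p = 1.86e-08), with 3.29 at a pseudocount of 0.1 and 0.78 at a pseudocount of 5.

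The contrast of Fosl1 with Fos and Egr1 was measured as a ratio within each library. Fosl1 stood at 2.93 and 1.40 times the Fos FPKM in the knockout libraries, against 0.00156 and 0.00879 times in the wild-type libraries. The order of the 2 genes was therefore turned round in both knockout libraries. On the log2 scale of FPKM + 1 the ratio averaged 0.91 ± 0.66 in knockout and -3.63 ± 0.18 in wild type (SD, n = 2 each), a difference of 4.53. Against Egr1, Fosl1 stood at 0.330 and 0.222 times in knockout and at 0.000715 and 0.00343 times in wild type. Egr1 thus remained above Fosl1 in each library, and the log2 difference between the genotypes was 3.00. Each difference was many times the spread within a genotype. The exact permutation test of 2 libraries against 2, two-sided, gave p = 0.33 for both, which is the smallest p it allows.

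The order of levels within each genotype shows the same change from another side. In knockout the means ran from Jund at 290.1 FPKM through Junb (109.8), Jun (59.1), Egr1 (45.7), Fosl2 (20.3), Fosl1 (12.3), Fos (6.30) and Egr2 (4.15) to Fosb at 2.41 FPKM. No neighbours in that order overlapped between their libraries, but the lowest Fos value (4.55 FPKM) and the highest Egr2 value (4.54 FPKM) nearly met. In wild type the means ran from Jund at 362 FPKM through Jun (79.0), Egr1 (28.6), Junb (26.9), Fosl2 (20.3), Fos (12.1), Fosb (4.85) and Egr2 (0.33) to Fosl1 at 0.0603 FPKM. There, Egr1 and Junb overlapped. Junb was thus in place 2 in knockout and 4 in wild type, and Fosl1 in place 6 in knockout and 9 in wild type.

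Summed over the FOS family, the level was 38.7 and 44.0 FPKM in knockout and 38.0 and 36.7 FPKM in wild type. The direction of this sum depended on the scaling: with equal column totals, chosen after seeing the data, it was 36.0 and 39.6 FPKM in knockout and 42.0 and 40.2 FPKM in wild type. Fosl1 held 34.5% and 25.7% of the FOS family FPKM in knockout, against 0.0524% and 0.274% in wild type. Fos held 11.8% and 18.3% in knockout and 33.6% and 31.2% in wild type, and Fosb 5.13% and 6.46% in knockout and 12.7% and 13.3% in wild type. The Fosl2 share was somewhat lower in knockout without overlap, at 48.5% and 49.5%, against 53.7% and 55.2% in wild type. The JUN family summed to 449 and 469 FPKM in knockout and to 487 and 449 FPKM in wild type, and these ranges overlapped. With equal column totals they did not, at 418 and 423 FPKM in knockout and 538 and 492 FPKM in wild type. Within it Junb held 22.6% and 25.2% in knockout and 6.02% and 5.45% in wild type. Jund held 65.1% and 61.4% in knockout and 76.0% and 78.9% in wild type. These shares are of transcript levels and say nothing of protein or of dimers.

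**Figure D3:**
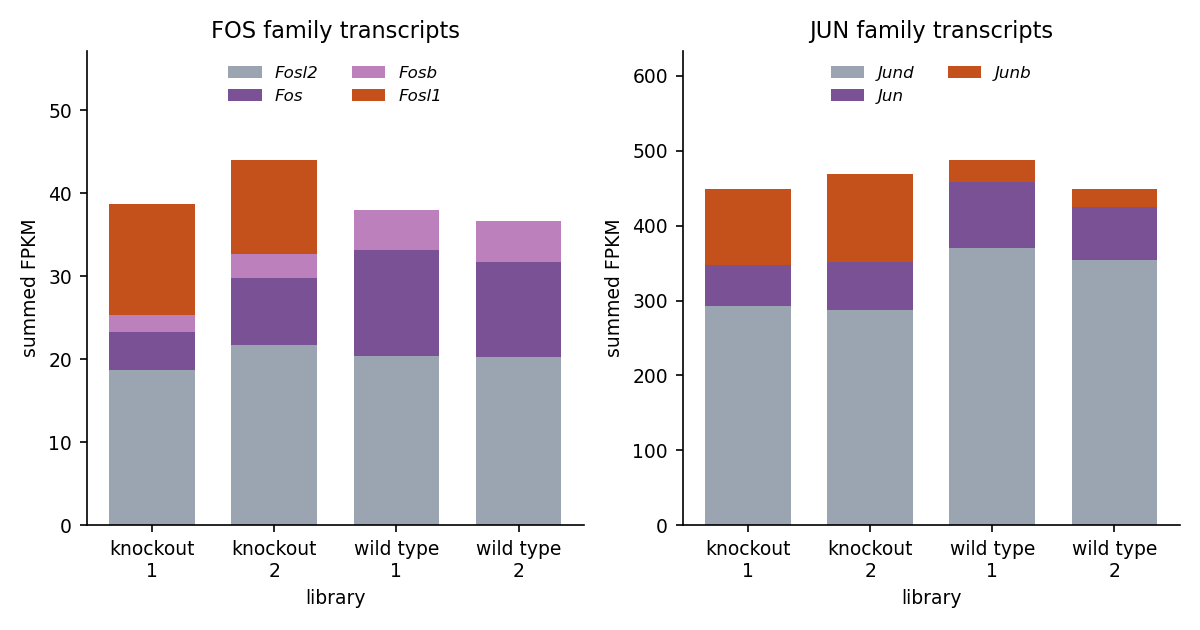
Summed FPKM of the FOS family genes (left) and the JUN family genes (right) in each library, knockout libraries left of wild-type libraries, with one colour per gene. Fosl1 makes up 34.5% and 25.7% of the FOS family bars in knockout and under 1% in wild type, while the FOS bars sum to between 36.7 and 44.0 FPKM. Junb makes up 22.6% and 25.2% of the JUN family bars in knockout and 6.02% and 5.45% in wild type.

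The start regions of genes that moved in opposite directions are shown next. Such regions hold some of the sequences through which signals are known to reach immediate early genes. Sites further than 250 bases before the start, CArG boxes included, lie outside the windows and were not searched in any gene. Windows of 250 bases before and 50 from the transcription start on were taken from RefSeq (GRCm38.p6), where 7 of the 9 genes have an entry, and Fosl1 and Egr1 do not. They were searched on both strands for the AP-1 site (TGANTCA), the full cyclic AMP response element (TGACGTCA), its core (TGACG), the EGR site (GCGNGGGCG) and the CArG box bound by SRF. Capitals in the sequences below mark matches to the core, the EGR site or the CArG box, and the full element, where present, would include the core. All are written 5′ to 3′ on the strand of the gene. The windows are chr12:85473640-85473939 (plus strand) for Fos, chr7:19309996-19310295 (minus strand) for Fosb, chr8:84978699-84978998 (minus strand) for Junb and chr10:67537619-67537918 (plus strand) for Egr2, the third of its 5 entries.
Fos: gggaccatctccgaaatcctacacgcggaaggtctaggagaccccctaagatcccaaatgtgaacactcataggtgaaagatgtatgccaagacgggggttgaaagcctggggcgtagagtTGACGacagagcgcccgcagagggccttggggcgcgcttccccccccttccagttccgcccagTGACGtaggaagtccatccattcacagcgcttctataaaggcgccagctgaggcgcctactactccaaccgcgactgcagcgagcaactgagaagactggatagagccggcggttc
Fosb: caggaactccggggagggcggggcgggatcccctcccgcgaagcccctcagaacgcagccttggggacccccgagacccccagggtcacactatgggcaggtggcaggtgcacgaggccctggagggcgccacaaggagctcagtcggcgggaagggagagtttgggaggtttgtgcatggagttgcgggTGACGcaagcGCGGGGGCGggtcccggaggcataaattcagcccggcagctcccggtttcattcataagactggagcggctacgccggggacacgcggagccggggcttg
Junb: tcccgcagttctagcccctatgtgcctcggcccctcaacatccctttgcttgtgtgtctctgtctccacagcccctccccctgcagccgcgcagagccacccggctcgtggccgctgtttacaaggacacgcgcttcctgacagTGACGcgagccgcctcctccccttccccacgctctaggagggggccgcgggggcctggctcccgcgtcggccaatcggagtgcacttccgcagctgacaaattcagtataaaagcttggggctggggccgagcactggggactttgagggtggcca
Egr2: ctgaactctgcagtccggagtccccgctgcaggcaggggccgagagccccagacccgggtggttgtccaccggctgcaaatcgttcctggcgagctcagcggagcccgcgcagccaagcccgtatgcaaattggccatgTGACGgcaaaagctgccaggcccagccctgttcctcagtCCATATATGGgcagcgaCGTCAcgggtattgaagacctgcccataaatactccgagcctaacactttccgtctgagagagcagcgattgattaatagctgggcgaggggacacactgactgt

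Fos, lower in knockout, held the core at positions -129 and -66 from its start, and Fosb, also lower, at -60, with an EGR site at -50. Junb, higher in knockout, held the core at -106. Positions are counted from the RefSeq start of each window. That start lies before the GENCODE gene start for Junb and after it for Fosb and Fosl2. Egr2, higher in knockout, held the core at -111 on the gene's strand and at -55 on the other strand, and a CArG box at -72. This holds for the window shown. The first Egr2 window, the one at the GENCODE gene start, held none of the motifs, and the second held a different CArG box and no core. Fosl2 had an EGR site at -79, and the Jun window held no exact match to any of these motifs. Variants that differ by a letter from a motif were not counted, such as TGACATCA in the Jun window beside the full element. The Jund window, which held none either, ends before the GENCODE start of Jund (chromosome 8, 70698949) and so is not the start region of that locus. Of all 32851 windows in the RefSeq table, 20.8% held the core, 1.79% the full element, 7.81% the AP-1 site, 5.55% the EGR site and 1.63% a CArG box. The core thus stood in genes of both directions. None of the members' windows held the AP-1 site or the full element, which says only that these letters are not in these windows.

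Genes upstream of AP-1 moved in both directions. Of the list of MAP kinases and SRF partners, 25 of 26 were tested, 6 were higher, 9 lower and 10 not called, with a median log2 change of -0.06. With equal column totals 13 were lower, beside 5620 of the 12322 genes tested with that scaling. Since 35.2% of all tested genes were called higher and 30.6% lower, the division by itself is no result about this list. Srf itself was at 22.9 and 23.7 FPKM in knockout and at 54.2 and 51.5 FPKM in wild type, well separated (log2 change -1.15, SE 0.10, limma adjusted p = 4.37e-07). The kinases directly above ERK rose, with Map2k1 at 43.1 and 48.4 FPKM in knockout and at 24.6 and 26.0 FPKM in wild type. Map2k2 was at 95.2 and 95.6 FPKM in knockout and at 57.3 and 57.7 FPKM in wild type. Rps6ka1, a kinase below ERK, rose to 2.58 and 2.40 FPKM in knockout, against 0.525 and 0.450 FPKM in wild type, and it too was tested through the knockout libraries alone. Map3k1, above the JNK kinases, fell by 0.89 on the log2 scale and Braf, a RAF kinase above MEK, fell by 0.66. These are transcript levels, and no kinase activity was measured.

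Leucine zipper proteins that pair with AP-1 members were likewise mixed. Of 15 listed, 12 were tested, 6 were higher, 3 lower and 3 not called. The median was 0.25, and -0.002 with equal column totals, where 5 were higher and 5 lower. That scaling called 3095 of all 12322 genes tested higher and 5620 lower. Beside 35.2% higher and 30.6% lower over all tested genes, these counts by themselves are no result about the list. Atf3, a stress-induced partner of JUN proteins, stood at 44.9 and 51.6 FPKM in knockout and at 9.92 and 12.6 FPKM in wild type (log2 change 2.01, SE 0.13, limma adjusted p = 1.45e-08). Its change was close in size to that of Junb. Maff, a small MAF protein, was at 50.9 and 46.7 FPKM in knockout and at 16.0 and 15.7 FPKM in wild type. Batf3, a partner of JUN proteins in leukocytes, rose by 1.06 on the log2 scale to 1.66 and 1.51 FPKM in knockout, against 0.219 and 0.257 FPKM in wild type, and was tested through the knockout libraries alone, so it could only be called higher. Atf7 fell by 0.72. Maf fell by 0.37 and Mafk by 0.31, and both calls ended without either wild-type library. The sizes hardly moved there. Maf was at -0.37 without either, and Mafk at -0.30 without library 1 and at -0.32 without library 2. The Maf call also ended with length and GC trends removed, at -0.18 (adjusted p = 0.105 by limma). The Mafk call also ended without knockout library 1, at -0.16, and with no filter. Only 1 lower gene was counted when either wild-type library was omitted, and 2 without knockout library 1.

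Among relatives of Egr1, Egr3 moved with Egr2. Of the 5 listed relatives and NAB corepressors, 3 were tested, of which 2 were higher and 1 lower, with a median of 0.30. Over all tested genes 35.2% were called higher and 30.6% lower. Egr3 was at 4.40 and 4.35 FPKM in knockout and at 0.683 and 0.724 FPKM in wild type (log2 change 1.66, SE 0.12, limma adjusted p = 5.22e-08), and like Egr2 it was tested through the knockout libraries alone. Egr4 and Wt1 stayed under the filter. The corepressors moved little, Nab2 by 0.30 and Nab1 by -0.32 on the log2 scale, and both calls ended without either wild-type library. Without wild-type library 1, Nab2 was at 0.36 and Nab1 at -0.38. Without wild-type library 2, Nab2 was at 0.23 and Nab1 at -0.26. The Nab2 call also ended without knockout library 2 and under quantile normalization, and Nab2 was 0.04 with equal column totals. The Nab1 call also ended without knockout library 1, at -0.19, and with no filter.

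The other immediate early genes did not move as a block. Of 25 tested, 11 were higher, 9 lower and 5 not called, with a median of 0.07, and of -0.17 with equal column totals. Because 35.2% of all tested genes were called higher and 30.6% lower, such a mixture by itself is no result about these genes. Arc, best known as an activity-regulated gene of neurons, was at 19.6 and 17.6 FPKM in knockout and at 0.255 and 0.374 FPKM in wild type (log2 change 3.90, SE 0.13, limma adjusted p = 2.22e-11). Myc, the growth-promoting transcription factor, was at 24.3 and 26.9 FPKM in knockout and at 1.29 and 1.89 FPKM in wild type (log2 change 3.37, limma adjusted p = 2.07e-10). Klf4, a zinc finger factor that opposes the contractile programme in smooth muscle, was at 55.5 and 62.4 FPKM in knockout and at 12.5 and 14.2 FPKM in wild type. Arc, under 1 FPKM in wild type, was tested through the knockout libraries alone and could only be called higher.

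Among those that fell was Npas4, another neuronal activity gene, at 0.642 and 1.85 FPKM in knockout and at 11.4 and 11.0 FPKM in wild type (log2 change -2.50, SE 0.20, limma adjusted p = 1.06e-07). Nr4a1, an orphan nuclear receptor, was at 12.6 and 21.4 FPKM in knockout and at 28.4 and 32.6 FPKM in wild type. Zfp36, which promotes decay of short-lived mRNAs, was at 23.6 and 28.4 FPKM in knockout and at 57.3 and 50.6 FPKM in wild type. Dusp1, a phosphatase of MAP kinases, was at 91.3 and 109 FPKM in knockout and at 186 and 180 FPKM in wild type, and the clock gene Per1 fell by 1.36 on the log2 scale. The labels do not state the time between death and RNA extraction.

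Genes known from other systems as AP-1 targets were mostly higher. Of 22 listed, 17 were tested, 13 were higher, 1 lower and 3 not called. Among all tested genes 35.2% were called higher and 30.6% lower. The median log2 change of the 17 was 2.19, beside 0.03 over all tested genes, and 1.15 with a pseudocount of 5. The count of lower genes was 3 with equal column totals and 2 without wild-type library 2. The list was put together with earlier results of these data known, and several of its genes have other known regulators, so nothing about Fosl1 follows from the count. Timp1, an inhibitor of matrix metalloproteases, was at 1906 and 1741 FPKM in knockout and at 22.1 and 20.4 FPKM in wild type. Hmox1, heme oxygenase, was at 172 and 176 FPKM in knockout and at 3.00 and 2.94 FPKM in wild type. Ccl2, a chemokine for monocytes, was at 30.8 and 34.3 FPKM in knockout and at 0.443 and 0.498 FPKM in wild type, and with 1 other gene of the list, Mmp12, was tested through knockout alone. Mmp9, a gelatinase, was the gene that fell, at 0.0964 and 0.136 FPKM in knockout against 1.01 and 1.03 FPKM in wild type, and it was tested through wild type alone. Among the matrix genes known in mouse bone to need Fra-1, Mgp was at 21169 and 20917 FPKM in knockout and at 4443 and 4808 FPKM in wild type. Col1a2 was at 1236 and 1247 FPKM in knockout and at 1541 and 1228 FPKM in wild type (log2 difference -0.15, limma adjusted p = 0.24), and Bglap stayed under the filter. Col1a2 was called lower with equal column totals (-0.41, adjusted p = 0.0059 by limma), with quantile normalization (-0.66, adjusted p = 0.00138 by limma) and without wild-type library 2 (-0.31, adjusted p = 0.0362 by limma).

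Genes known as EGR1 targets moved in both directions. Of 10 tested, 5 were higher, 2 lower and 3 not called. The median was 0.21, and -0.05 with equal column totals, where 4 were higher and 4 lower. That scaling called 3095 of all 12322 genes tested higher and 5620 lower. Set beside 35.2% higher and 30.6% lower over all tested genes, this division by itself is no result about the list. Mmp14, a membrane metalloprotease, was at 268 and 254 FPKM in knockout and at 100.5 and 95.3 FPKM in wild type. Pdgfb, a growth factor for smooth muscle, was at 13.5 and 11.5 FPKM in knockout and at 3.44 and 4.85 FPKM in wild type. Tgfb1, which is also on the AP-1 list, was at 50.9 and 49.0 FPKM in knockout and at 20.9 and 20.9 FPKM in wild type. F3, tissue factor, a classical Egr1 target in endothelium, went the other way, at 7.58 and 8.96 FPKM in knockout and at 40.4 and 43.6 FPKM in wild type (log2 change -2.22, SE 0.12, limma adjusted p = 2.44e-09). Icam1 fell by 0.30 on the log2 scale, a call that ended with no filter, leaving 1 lower gene on the list. It also ended without wild-type library 1 (-0.33), wild-type library 2 (-0.26) or knockout library 2 (-0.27).

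**Figure D4:**
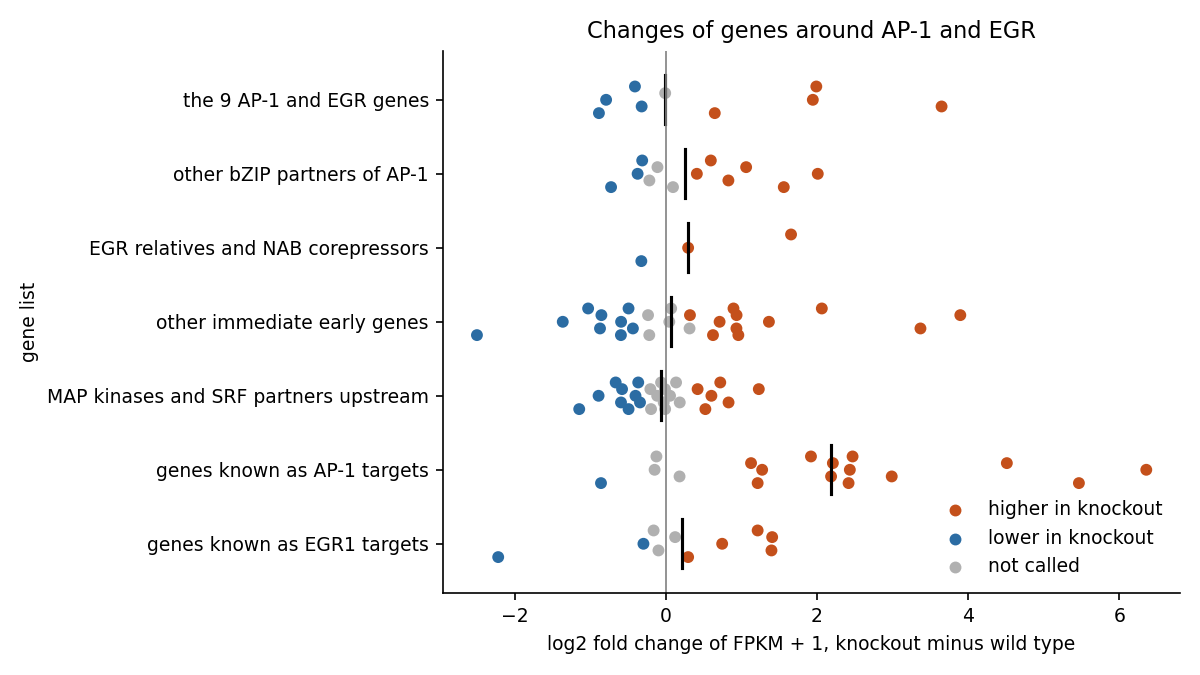
Log2 fold change of FPKM + 1, knockout minus wild type, of each tested gene in 7 gene lists; orange marks genes called higher in knockout, blue lower and grey not called, and the black line is the median of the list. The medians are -0.01 for the 9 AP-1 and EGR genes and 2.19 for the genes known as AP-1 targets, with both directions present in each list.

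Markers of other cells differed between the genotypes in the same libraries. Their counts stand beside 35.2% of all tested genes called higher in knockout and 30.6% called lower. All 8 macrophage markers were higher in knockout, summing to 532 and 449 FPKM in knockout and to 72.2 and 73.3 FPKM in wild type. All 5 general leukocyte markers were higher, summing to 118 and 88.0 FPKM in knockout and to 5.29 and 4.69 FPKM in wild type. Of these, Adgre1, Fcgr1, Ptprc and Cd53 were under 1 FPKM in wild type and tested through knockout alone, so they could only be called higher. None of the 13 markers was at 0 in any library. All 8 contractile smooth muscle markers were lower, summing to 4928 and 6536 FPKM in knockout and to 20768 and 23119 FPKM in wild type. The 7 tested endothelial markers were lower too, with all 8 summing to 81.1 and 95.1 FPKM in knockout and to 251 and 255 FPKM in wild type. Of 6 fibroblast markers, 1 was higher and 5 lower, with sums of 358 and 381 FPKM in knockout and 547 and 589 FPKM in wild type. The 7 T and B cell markers and 5 adipocyte markers stayed under the filter. Skeletal muscle markers summed to 1.15 and 1.91 FPKM in knockout and to 6.81 and 8.98 FPKM in wild type, and Myh1 and Myh4 were at 0 in each. Red cell markers summed to 82.2 and 235 FPKM in knockout and to 210 and 235 FPKM in wild type. The part of these shifts in the AP-1 and EGR levels was not tested, and in bulk aorta fewer cells of a type and less RNA per cell cannot be told apart.

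Profiles most like those of the contrasted genes were found by the distance between log2 levels centred over the 4 libraries. For Fosl1 they were Col8a1, a short-chain collagen, at a distance of 0.13, then Apol9b (0.15) and Capg, an actin capping protein (0.16). Col8a1 was at 30.4 and 27.3 FPKM in knockout and at 1.36 and 1.27 FPKM in wild type. For Fos they were Kansl1l (0.09), the Mediator kinase Cdk19 (0.16) and the microtubule protein Clasp2 (0.18). Kansl1l was at 3.82 and 6.31 FPKM in knockout and at 9.99 and 9.18 FPKM in wild type. For Egr1 they were Adh7 (0.02), Dus4l (0.03) and the mitochondrial protease gene Afg3l2 (0.04). With 4 libraries, likeness of this kind reflects little more than the size of the genotype difference and the spread within each genotype.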

How the data were processed

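RNA-seq of 4 mouse aorta libraries was analysed. Per the labels' protocols, polyadenylated RNA was fragmented, primed with random hexamers and sequenced on Illumina. The authors deposited FPKM per gene for each library; the file headers misspell the unit as PFKM. The submitters' processing notes name the build mm10 and, without roles, the counter featureCounts 1.5.0-p3, the aligner HISAT2 2.0.5 and the test package DESeq2 1.16.1. No common step was found among low values, so read counts were not recovered, depth is unknown, and no interval that needs depth is given. The genotype in the labels set the groups, and library numbers match nothing across genotypes. No label says that the libraries came from separate animals, so a p-value measures only the variation among them, which may be technical.

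Genes that reached 1 FPKM in 2 or more libraries entered as log2(FPKM + 1) with limma 3.58.1 (R 4.3.3), intensity trend on, Benjamini-Hochberg over all 12314 genes. This pseudocount understates changes of low genes. A gene's own libraries give few of the 13.4 total degrees of freedom, and the rest come from other genes. Gene positions, length and GC are from GENCODE M21. Alternatives were 2 other pseudocounts, 2 other filters, equal totals, quantile normalization, limma without trend or with robust variances, length and GC trends removed, and each library left out with the tested genes kept as they were. From each fixed list, up to 3 called genes in each direction with the largest change are named, with those set beside Fosl1 (Mgp, Col1a2 and Bglap). Nr4a1 and Dusp1 are named outside that rule. The members and lists were chosen with earlier results of these data known. The result of 1 marker list is not reported here.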

Additional observations from a re-analysis of the deposited data

How the results depend on the processing

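Fosl1, Junb, Egr1 and Egr2 stayed higher and called, and Fos and Fosb lower and called, under each alternative that gave a value. Fosl1 and Egr2 passed the filter through the knockout libraries alone, so with it they could only be called higher. A filter at 5 FPKM left out Fosb and Egr2. Jun kept its direction throughout, at -0.41 with no filter (limma adjusted p = 0.0507), and over the omitted libraries it ranged between -0.56 and -0.25. Jund ranged between -0.35 and -0.29 when libraries were left out. The count of lower members, 4 as reported, lay between 2 and 4 when a library was left out, with 2 without wild-type library 1. Fosl2 was -0.26 with equal column totals, 0.30 with length and GC trends removed, and between -0.11 and 0.094 when libraries were left out, with 0.094 without knockout library 1. An arm with 1 library left is assumed to vary like the other. The Fosl1 over Fos difference of 4.53 was 7.30 with a pseudocount of 0.1 and 2.39 with one of 5. The Fosl1 over Egr1 difference of 3.00 was 5.65 and 1.19 at these pseudocounts and 2.61 with length and GC trends removed. Among the alternatives, the pseudocount changed the size of these differences most, and Fosl1 is near 0 in wild type. Causes of the differences were not tested. The Fosl1 share of the FOS family, 30.0 percentage points higher in knockout, has no pseudocount to vary, and lay between 25.5 and 34.4 when libraries were left out. Filters and limma settings do not enter the ratios or the share. Depth is unknown, so the wild-type level of Fosl1 cannot be bounded. No paired analysis was possible because the library numbers follow accession order and no label pairs a knockout with a wild-type library.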
